A study of Mus musculus with 9 samples.

Results

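The 8 genes described here encode the colony-stimulating factors of the mouse, the related cytokine IL-34, and the receptor chains that bind them. The rule that picks them is a list of names, with no threshold on a measured value: 4 ligands (Csf1, Csf2, Csf3 and Il34) and 4 receptor chains (Csf1r, Csf2ra, Csf2rb and Csf3r), out of 23944 gene identifiers in the deposited tables. All 8 were present and all 8 passed the filter on low counts that kept 15834 genes for testing. The members and the gene lists below were chosen with earlier results of these data known. Their counts beside the share of all genes are therefore a description and not independent support.

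RNA of whole left lungs from adult wild type mice was sequenced in 9 libraries, 3 per group. Naive lungs came from untreated C57BL/6 mice. The other 6 were left lungs of C57BL/6 donors placed in Balb/C recipients. In the cold-ischemia group the donor lung was kept at 0 °C for 24 h and reperfused in the recipient for 2 h. In the shock group the donor first went through hypovolemic shock, in which too little blood circulates, for 4 h at a mean arterial pressure of 15 ± 5 mmHg. It recovered for 20 h, and its lung then went through the same cold ischemia and reperfusion. Every graft therefore shares the surgery, the storage, the reperfusion and an allogeneic recipient, and the grafts are compared with lungs that had none of these. A graft can hold blood cells of the recipient beside those of the donor.

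Total counts per library ran from 18913487 to 34986276. The labels do not name the animals behind the libraries, so p-values measure the spread between these samples. A record of another series is named in the label of each of the 3 naive libraries and in 0 of 6 graft labels, so a separate origin of the naive libraries and the naive condition cannot be told apart. The sample titles and the deposited tables disagree on 2 libraries: cold-ischemia replicate 2 stands among the shock grafts in the tables, and shock replicate 3 among the cold-ischemia grafts. Groups here follow the titles, and the differences of the 8 genes between the graft groups are also given with the tables' grouping and without both libraries. Likeness of counts was measured by chi-square per degree of freedom, lower for more alike libraries. Shock replicate 3 had 21.84 to cold-ischemia replicate 1 and at least 69.98 to the other shock grafts. Cold-ischemia replicate 2 had 37.08 to shock replicate 1 and 116.9 to shock replicate 2. It had 66.18 and 63.97 to cold-ischemia replicates 1 and 3. Which grouping is right was not tested. Comparisons of grafts with naive lungs share the same 3 naive libraries.

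The colony-stimulating factors are secreted proteins named for the blood-cell colonies they support in culture. M-CSF, the product of Csf1, and IL-34 bind the same receptor tyrosine kinase, CSF1R, which keeps monocytes and macrophages alive. GM-CSF, the product of Csf2, binds an alpha chain (Csf2ra) that pairs with a shared beta chain (Csf2rb) and signals through JAK2 and STAT5; in the lung it drives the maturation of alveolar macrophages and the clearance of surfactant. G-CSF, the product of Csf3, binds CSF3R, which signals largely through JAK kinases and STAT3 and controls the production and release of neutrophils.

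In grafts, 3 of the 4 ligands and 3 of the 4 receptor chains were higher than in naive lungs, and none was lower. Csf3 had the largest fold change of the 8, followed by Csf2, Csf1, Csf3r, Csf2rb and Csf2ra. The order of Csf2 and Csf1 is not firm. Over the alternatives listed under processing, the log2 fold change in all grafts ran from 3.92 to 5.52 for Csf2 and from 3.61 to 3.92 for Csf1. The authors' deposited values for cold-ischemia grafts are 3.58 for Csf1 and 2.88 for Csf2. The other 2, Il34 and Csf1r, did not pass the test. The count was 6 of 8 members higher for all grafts against naive lungs, where 22.1% of the genes tested were called higher and 19.7% lower (edgeR's quasi-likelihood test, Benjamini-Hochberg adjusted p under 0.05 over all genes tested). It was also 6 of 8 for cold-ischemia grafts alone, with a background of 17.5% higher and 13.1% lower, and 6 of 8 for shock grafts alone, with a background of 22% higher and 17.9% lower. The median log2 fold change of the 8 genes was 2.48 for all grafts, beside -0.05 over all genes tested. The same 6 were higher in every graft than in every naive library, which held for 20.9% of the genes tested. With the tables' grouping and without the disputed libraries the count for all grafts was again 6 of 8, with backgrounds of 23.6% and 21.6% called higher.

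**Figure D1:**
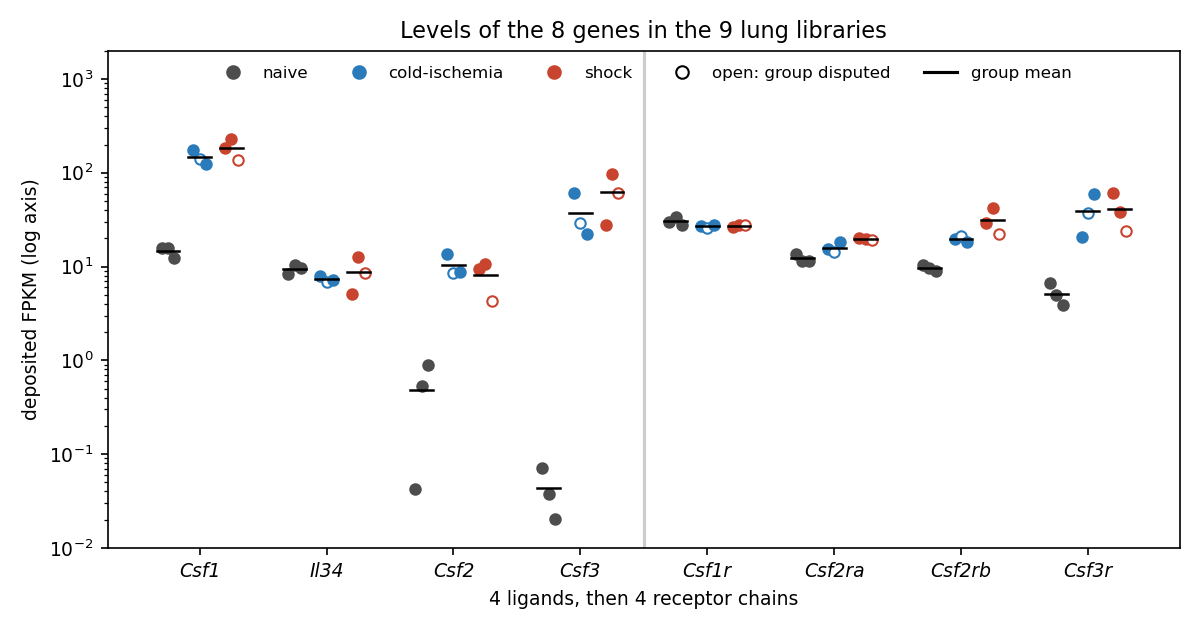
Deposited FPKM (reads scaled to gene length and to the counted reads of the library, log axis) of the 8 genes in each library, ligands on the left and receptor chains on the right. Points are libraries, short lines are group means over 3 libraries, and open points are the libraries whose group the deposited tables dispute; naive libraries lie below every graft for Csf1, Csf2, Csf3, Csf2ra, Csf2rb and Csf3r.

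Csf1 lies on chromosome 3 (3:107741048-107760469, minus strand, mm10), and its product M-CSF is the main growth and survival factor of the monocyte lineage. It was the most abundant of the 8 transcripts in every graft. Its FPKM (reads scaled to gene length and library total) was 15.7, 15.8 and 12.4 in naive replicates 1 to 3. In cold-ischemia grafts it was 175.8, 141.8 and 122.5, and in shock grafts 183.7, 230.0 and 136.9. The lowest graft stood far above the highest naive lung, and the graft groups overlapped. The log2 fold change was 3.64 ± 0.24 (SE) in cold-ischemia grafts, a 12.4-fold rise (adjusted p = 3.4e-06), and 3.99 ± 0.25 in shock grafts, a 15.9-fold rise (adjusted p = 1.81e-06, edgeR).

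The promoter of Csf1, the most abundant gene of those that rose, is shown with the motif matches found in it. The 250 bases before its RefSeq start (GRCm38.p6, 3:107760470-107760719, minus strand, printed 5′ to 3′) held 1 match to the NF-kB site, in capitals, which begins 154 bases before the start and was found on the opposite strand. Of 32851 windows of the same length before RefSeq starts, 7.25% held such a match on either strand. No match to the AP-1 site TGANTCA or to the TATA letters TATAAA was found in this window.
Csf1 promoter: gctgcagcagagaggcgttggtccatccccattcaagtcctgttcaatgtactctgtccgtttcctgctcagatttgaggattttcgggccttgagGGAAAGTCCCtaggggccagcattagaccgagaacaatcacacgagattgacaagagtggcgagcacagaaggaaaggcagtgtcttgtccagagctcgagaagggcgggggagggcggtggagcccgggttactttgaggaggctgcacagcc
The match is a description of these letters and not of a bound site. RefSeq promoter windows were matched for 4 of the 8 genes (Csf1, Csf2, Csf2ra and Csf3r), and only that of Csf1 is printed. The windows of Csf2 and Csf2ra held no match to the NF-kB site and that of Csf3r held 1. The PU.1 core GAGGAAG was also sought. It had 0 matches in the windows of Csf1 and Csf2, 2 in that of Csf2ra and 1 in that of Csf3r. Of all windows, 10.61% held such a match. The RefSeq start of Csf2 lies 232 bases upstream of its deposited gene start. The bases directly before that deposited start were thus not searched, and no absence of a site there can be read from the window. For Csf3r the RefSeq and deposited starts also differ, while for Csf1 and Csf2ra they are the same.

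Csf2 lies on chromosome 11 (11:54247271-54249667, minus strand) and encodes GM-CSF, the alveolar macrophage factor described above. It was barely detected in naive lungs, with 1, 8 and 25 reads in replicates 1 to 3, or 0.0423, 0.529 and 0.893 FPKM. Cold-ischemia grafts had 13.8, 8.51 and 8.69 FPKM and shock grafts 9.41, 10.6 and 4.28. All 6 grafts were above all 3 naive lungs, and shock replicate 3, a disputed library, was the lowest graft. The naive libraries themselves spread over 21.1-fold, the widest spread within a group among the 8 genes. Csf2 rose by 4.66 ± 0.65 (SE, log2) in cold-ischemia grafts (adjusted p = 0.000431) and by 4.34 ± 0.65 in shock grafts (adjusted p = 0.000504, edgeR). Over all grafts the fold was 22.6, and 45.7 without naive replicate 3, which holds most of the naive reads (adjusted p = 0.000646). The summed counts were 1065 reads in grafts and 34 in naive lungs. Each sum divided by the scaled library totals gave a ratio of 22.5, with an exact 95% counting interval of 16.03 to 32.73. That interval covers counting error only and not the spread between the naive libraries. The authors' deposited tables give a log2 fold change of 2.88 for cold-ischemia grafts and 4.18 for shock grafts. They use their own grouping of the disputed libraries, so their cold-ischemia group holds shock replicate 3. These values are thus of other sets of libraries than those above. The 17 alternatives, which include the tables' grouping, gave 4.08 to 5.68 for cold-ischemia grafts, all above 2.88. The source of the difference from the authors' value was not tested.

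Csf3 lies on the same chromosome (11:98701263-98703629, plus strand) and encodes G-CSF, which mobilises neutrophils from the marrow. Naive lungs had 3, 1 and 1 reads, or 0.0718, 0.0374 and 0.0202 FPKM. Cold-ischemia grafts had 61.1, 28.9 and 22.01 FPKM, and shock grafts 27.9, 98.0 and 60.7. From a level near the limit of detection it came to at least 22.01 FPKM in every graft, with a 4.46-fold spread between the lowest and the highest graft. The log2 fold change was 9.97 ± 0.80 in cold-ischemia grafts (adjusted p = 1.13e-05) and 10.72 ± 0.81 in shock grafts (adjusted p = 6.35e-06, edgeR). The naive group held only 5 reads in all. The ratio of summed reads, each sum divided by the scaled library totals, was 1433 for all grafts. Its exact 95% counting interval was 614 to 4416, which covers counting error only. Without cold-ischemia replicate 1 the fold of that group was 667 in place of 1002.

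Il34 lies on chromosome 8 (8:110741829-110805924, minus strand) and encodes the second ligand of CSF1R, which in other tissues supports microglia and the macrophages of the epidermis. It was measured at 8.27, 10.4 and 9.69 FPKM in naive lungs. Cold-ischemia grafts had 7.94, 6.83 and 7.17 FPKM, and shock grafts 5.14, 12.6 and 8.44. Shock replicates 1 and 2 were the lowest and the highest of the 9 libraries, so that this group spanned all the others. It overlaps the antisense genes Gm15894 and Gm15895, which had 18 and 75 reads against 3453. The log2 fold change for all grafts was 0.08 with a 95% interval of -0.44 to 0.60 (adjusted p = 0.809, edgeR), and its sign depended on the scaling: it was -0.12 with upper-quartile scaling. Of the genes that code for other receptors reported to bind IL-34, Ptprz1 and Sdc1, 0 of 2 passed the test, with log2 fold changes of 0.28 ± 0.32 and 0.20 ± 0.12.

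The 3 inducible ligands differed in a feature of their transcripts that the choice of genes did not use. Clusters of ATTTA in the 3′ UTR are the core of AU-rich elements, which are known to shorten the life of cytokine mRNAs, so the densest 30 bases of each are shown with each ATTTA in capitals. The positions are counted from the first base of the longest 3′ UTR in GENCODE M21.
Csf2, bases 239 to 268: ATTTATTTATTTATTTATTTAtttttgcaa
Csf3, bases 32 to 61: ATTTAtctctATTTAatATTTAtgcatatt
Csf1, bases 2034 to 2063: ATTTAaatatctATTTAaaaaataggaagc
The whole 3′ UTR of Csf2 held 9 ATTTA in 317 bases, with 5 overlapping copies in these 30 bases, a density reached by 0.271% of 21021 genes. Csf3 held 6 in 669 bases, with 3 in 30 bases, reached by 2.56% of genes. Csf1 held 4 in 2111 bases, with 2 in 30 bases, reached by 18.8% of genes. The receptor genes Csf2ra, Csf2rb and Csf3r held 0, Csf1r held 3 and Il34 held 1. The order of the ligands by ATTTA density was thus Csf2, Csf3, Csf1. Their order by fold change was Csf3, Csf2, Csf1, in which the places of Csf2 and Csf1 are not firm. With 3 genes no relation can be tested, and RNA stability was not measured.

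Among the receptors, Csf1r (18:61105572-61132149, plus strand) encodes the kinase shared by M-CSF and IL-34. It varied least of the 8 genes over the 9 libraries. Its FPKM was 29.9, 33.8 and 28.0 in naive lungs. It was 26.9, 25.7 and 27.8 in cold-ischemia grafts, and 26.2, 27.9 and 27.9 in shock grafts. On the FPKM scale every graft was below every naive lung, by little. After TMM scaling, which adjusts library totals for differences in composition, the groups overlapped and the log2 fold change was 0.15 with a 95% interval of -0.08 to 0.37 (adjusted p = 0.268, edgeR), with CPM of 116.6 to 135.8 in naive lungs and 128.2 to 143.2 in grafts. With upper-quartile scaling it was -0.06, so no direction can be given. The gene overlaps Hmgxb3 on the opposite strand, which had 10196 reads against 30138 for Csf1r, and the labels do not state whether counting used the strand.

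Csf2ra (19:61224402-61228418, minus strand) encodes the ligand-specific chain of the GM-CSF receptor. Naive lungs had 13.8, 11.4 and 11.6 FPKM. Cold-ischemia grafts had 15.2, 14.2 and 18.2, and shock grafts 20.2, 19.6 and 19.2. Every graft was above every naive lung, by the narrowest margin of the 6 genes that rose. Csf2ra was 1.60-fold higher in cold-ischemia grafts (log2 0.68 ± 0.14, adjusted p = 0.00431) and 2.04-fold higher in shock grafts (log2 1.02 ± 0.14, adjusted p = 0.000301, edgeR).

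Csf2rb (15:78325990-78351000, plus strand) encodes the beta chain that GM-CSF shares with the receptors of IL-3 and IL-5. Naive lungs had 10.3, 9.60 and 9.0 FPKM. Cold-ischemia grafts had 19.5, 21.1 and 18.1, and shock grafts 29.3, 42.2 and 22.3. By the titles the 3 groups lay in steps that did not overlap, with naive lungs lowest and shock grafts highest; with the tables' grouping the graft groups overlapped, at 18.1 to 22.3 FPKM for cold ischemia and 21.1 to 42.2 for shock. Against naive lungs Csf2rb was 2.51-fold higher in cold-ischemia grafts (log2 1.33 ± 0.21, adjusted p = 0.000883) and 4.11-fold higher in shock grafts (log2 2.04 ± 0.21, adjusted p = 5.07e-05, edgeR).

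Mice carry a second beta chain gene, Csf2rb2, whose product serves the IL-3 receptor; it lies 20386 bases from Csf2rb on the opposite strand. Its log2 fold change for all grafts was 1.72 ± 0.25 (adjusted p = 0.000348, edgeR), beside 1.68 ± 0.19 for Csf2rb. The ratio of Csf2rb to Csf2rb2 by FPKM stayed between 2.90 and 3.79 in all 9 libraries. Their longest transcripts share 28.1% of the 31-base windows of Csf2rb and 3.47% of its 150-base windows, so part of the reads could have been assigned to either gene and the values of each are uncertain to that extent. Of the other genes of the beta chain family, Il3ra, the IL-3 receptor alpha chain, had a log2 fold change of -0.13 ± 0.22 (adjusted p = 0.677). Il5 and Il5ra did not pass the filter on low counts, and no gene named Il3 was found in the deposited tables.

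Csf3r (4:126024550-126044440, plus strand) encodes the G-CSF receptor, carried mainly by neutrophils and their precursors. Naive lungs had 6.64, 4.94 and 3.88 FPKM. Cold-ischemia grafts had 20.9, 37.6 and 58.8, and shock grafts 61.0, 38.6 and 23.7. Every graft was above every naive lung, and the graft groups covered nearly the same range. The log2 fold change was 3.22 ± 0.42 in cold-ischemia grafts, a 9.31-fold rise (adjusted p = 0.00028), and 3.35 ± 0.42 in shock grafts, a 10.2-fold rise (adjusted p = 0.000174, edgeR).

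Markers of the cells that carry these receptors moved in the comparison of all grafts with naive lungs. There 22.1% of all genes tested were called higher and 19.7% lower. Of 16 neutrophil markers, 16 were higher in all grafts, with a median log2 fold change of 5.22, among them Mmp8 (5.72 ± 0.36), Clec4d (5.50 ± 0.33), Trem1 (5.26 ± 0.33) and Retnlg (5.15 ± 0.31). Their summed CPM ran from 147.7 to 198.3 in naive lungs and from 1848 to 4599 in grafts. In shock grafts alone 15 of the 16 were called higher. Elane and Mpo, genes of immature neutrophil granules, had no read in 2 naive libraries each. Elane had 0.152 CPM in naive replicate 3 and 0.0452 to 2.31 in grafts, so the groups overlapped. Mpo had 0.202 CPM in naive replicate 3 and 0.209 to 3.74 in grafts. Of 8 markers of classical monocytes, 6 were higher and 1 lower, with Cd14, a receptor chain for endotoxin, at 4.73 ± 0.22, and their summed CPM ran from 669.9 to 901.7 in naive lungs and from 1352 to 2494 in grafts. Chil3 and Cd14 made up 81.8% to 87.8% of that sum in grafts, and Cd14 went from a mean of 24.0 CPM in naive lungs to 641.0 in grafts. Without both, a sum added after seeing the data, the other 6 ran from 101.1 to 130.1 CPM in naive lungs and from 185.9 to 335.0 in grafts. The lower one was Ccr2, the chemokine receptor of these monocytes (log2 -0.97 ± 0.21, adjusted p = 0.00406, edgeR). In bulk tissue a change in the number of cells of a type and a change of RNA per cell cannot be told apart, and the part of these cells in the rise of Csf3r, Csf2ra and Csf2rb was not tested. Markers of mesothelium, the outer lining of the lung, were lower in 5 of 5 cases, with a summed CPM of 191.6 to 257.5 in naive lungs and 4.17 to 56.4 in grafts; their part in the ligands' values was not tested.

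**Figure D2:**
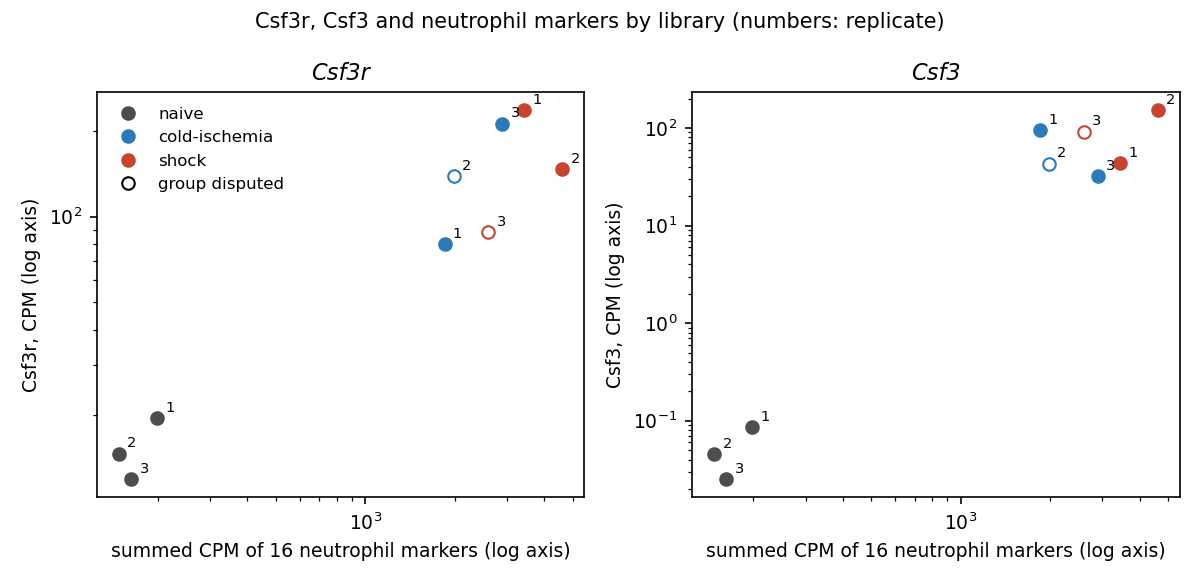
CPM of Csf3r (left) and Csf3 (right) against the summed CPM of 16 neutrophil markers in each library, all axes logarithmic, with numbers for replicates and open points for the libraries of disputed group. Naive lungs lie apart at the lower left; among the 6 grafts the highest Csf3r libraries, shock replicate 1 and cold-ischemia replicate 3, have 43.7 and 32.2 CPM of Csf3, against 151.3 CPM in the highest graft.

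Within the 6 grafts, the libraries with the most Csf3 were not those with the most Csf3r. Pearson's r of log2 CPM was -0.62 (exact permutation p = 0.192, two-sided, n = 6) and Spearman's rho -0.43 (exact p = 0.419). Without the 2 libraries farthest from the median of Csf3, r was -0.89 over 4 libraries. The same step with each other ligand moved r from -0.21 to 0.76 for Csf2 and Csf2ra and from 0.20 to 0.98 for Csf2 and Csf2rb. It moved r from 0.57 to 0.34 for Csf1 and Csf1r and from 0.64 to 0.89 for Il34 and Csf1r. A value over 4 libraries is thus unstable, and no conclusion is drawn from it. None of the 5 ligand and receptor pairs compared over the grafts passed after Benjamini-Hochberg adjustment; the lowest p was that of rho for Il34 and Csf1r (rho 0.83, exact permutation p = 0.0583, adjusted p = 0.292). The 6 grafts come from 2 treatment groups of 3, which is too few for a value within each.

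Levels can be compared between genes on the FPKM scale, which accounts for gene length. In naive lungs the order by mean FPKM was Csf1r (30.6 ± 2.92, SD, n = 3), Csf1 (14.7 ± 1.92), Csf2ra (12.2 ± 1.31), Csf2rb (9.64 ± 0.658), Il34 (9.44 ± 1.07), Csf3r (5.15 ± 1.39), Csf2 (0.488 ± 0.427) and Csf3 (0.0431 ± 0.0263). Neighbours in that order overlapped for Csf1 and Csf2ra, for Csf2rb and Il34, and for Csf2 and Csf3. In shock grafts the order was Csf1 (183.5 ± 46.5), Csf3 (62.2 ± 35.1), Csf3r (41.1 ± 18.8), Csf2rb (31.2 ± 10.1), Csf1r (27.3 ± 0.971), Csf2ra (19.7 ± 0.502), Il34 (8.73 ± 3.75) and Csf2 (8.08 ± 3.34). There the 4 genes from Csf3 to Csf1r each overlapped the next, as did Il34 and Csf2. In cold-ischemia grafts Csf1 (146.7 ± 27.0) was again first without overlap, followed by Csf3r (39.1 ± 19.0), Csf3 (37.3 ± 20.9) and Csf1r (26.8 ± 1.01), which overlapped one another. Csf2rb (19.6 ± 1.503) and Csf2ra (15.9 ± 2.09) overlapped, Csf2 (10.3 ± 2.98) came next, and Il34 (7.31 ± 0.568) was last. Thus a receptor gene led in naive lungs and a ligand gene in both graft groups.

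The balance of ligand to receptor transcripts moved with this. Csf1 had 0.444 to 0.527 times the FPKM of Csf1r in naive lungs and 4.41 to 8.25 times in grafts. Il34 stayed at 0.196 to 0.453 times Csf1r in grafts, around the naive range of 0.277 to 0.346. Of the ligands of CSF1R, Csf1 therefore exceeded Il34 by 1.29 to 1.90 times in naive lungs and by 16.2 to 35.8 times in grafts. The Csf2 to Csf2ra ratio was 0.00307 to 0.0770 in naive lungs and 0.223 to 0.905 in grafts. The Csf3 to Csf3r ratio was 0.00521 to 0.0108 in naive lungs and 0.375 to 2.92 in grafts, where 3 libraries had more Csf3 and 3 more Csf3r. Within the GM-CSF receptor, the alpha chain exceeded the beta chain in naive lungs (1.19 to 1.33 times), whereas the ratio was 0.464 to 1.01 in grafts. These are ratios of transcripts and not of proteins.

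**Figure D3:**
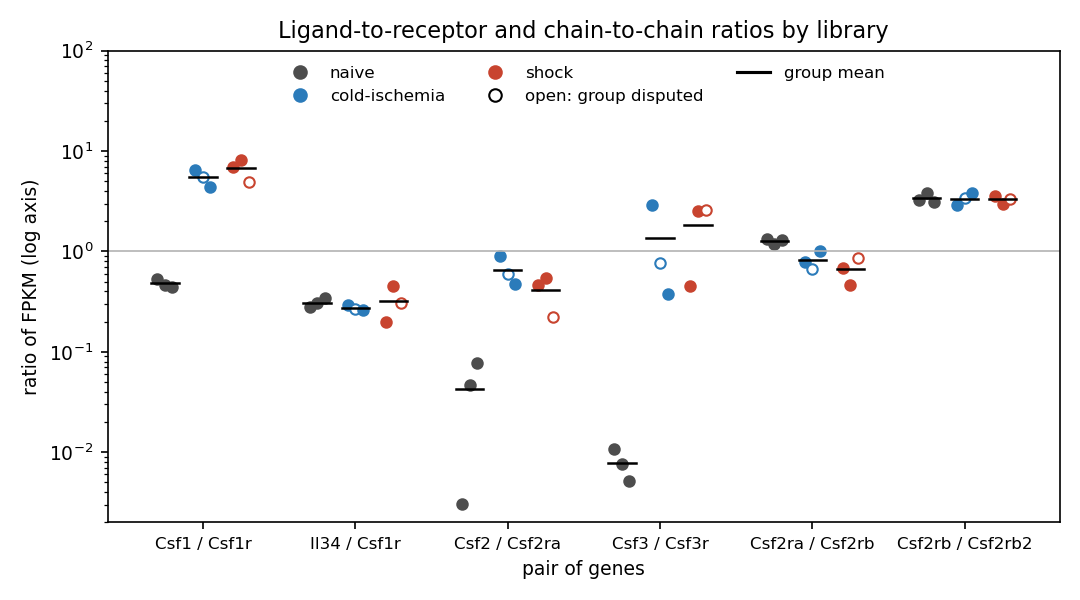
Ratio of FPKM (log axis, line at 1) for 4 ligand and receptor pairs, the alpha and beta chains of the GM-CSF receptor, and the pair of beta chain genes, in each library; short lines are group means and open points the libraries of disputed group. Grafts lie above naive lungs for Csf1, Csf2 and Csf3 over their receptors and below them for Csf2ra over Csf2rb, while the groups overlap for Il34 over Csf1r and for Csf2rb over Csf2rb2.

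The comparison of shock grafts with cold-ischemia grafts asks what donor hypovolemia added. None of the 8 genes passed the test, as did none of the 15834 genes tested (0% called in either direction with edgeR, 8 genes with DESeq2). At an unadjusted p under 0.05 there were 1152 genes (7.28%), 2 of them members. These were Csf2rb (log2 0.71 ± 0.21, 95% interval 0.26 to 1.17, adjusted p = 0.671, edgeR) and Csf2ra (log2 0.35 ± 0.14, 0.04 to 0.65, adjusted p = 0.671, edgeR). They were also the only 2 of the 8 whose graft groups did not overlap, higher with shock, against 5.45% of all genes. That holds for the titles' grouping: with the tables' grouping the graft groups overlapped for both, with Csf2ra at 15.2 to 19.2 FPKM for cold ischemia and 14.2 to 20.2 for shock. Both encode chains of the GM-CSF receptor, while Csf2 itself had a log2 difference of -0.32 (95% interval -1.47 to 0.83), 0.11 with the tables' grouping and -0.14 without the disputed libraries.

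The differences in Csf2rb and Csf2ra stayed above 0 in each grouping, and that in Csf2ra was near 0 with the tables' grouping. For Csf2rb it was 0.66 with the tables' grouping (adjusted p = 0.15) and 0.97 without the disputed libraries (adjusted p = 0.0731, edgeR). Without shock replicate 2, the highest library, it was 0.43 (adjusted p = 0.979). The authors' deposited table, which has the tables' grouping, gives 0.56 for Csf2rb, with a p-value of 0.0131 and an adjusted p-value of 0.167. For Csf2ra it was 0.07 with the tables' grouping (adjusted p = 0.851) and 0.30 without the disputed libraries (adjusted p = 0.359, edgeR). With the tables' grouping 0 of the 8 genes were called, where 0.227% of genes were called higher and 0.556% lower. Without the disputed libraries 0 of 8 were called, where 0.056% of genes were called higher and 0.187% lower. Markers of neutrophils had a median log2 difference of 0.48 and those of classical monocytes 0.51 between shock and cold-ischemia grafts, with 0 called in either list. These medians were 0.30 and 0.58 with the tables' grouping and 0.53 and 0.78 without the disputed libraries, and the part of these cells in Csf2rb was not tested.

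The other genes had wide intervals in this comparison. The log2 difference was 0.35 for Csf1 (95% interval -0.13 to 0.84), 0.75 for Csf3 (-0.24 to 1.74), 0.13 for Csf3r (-0.72 to 0.98) and 0.28 for Il34 (-0.32 to 0.89). Only Csf1r was narrow, at 0.06 (-0.20 to 0.32). With the tables' grouping these values were 0.38 for Csf1, 0.12 for Csf3, 0.46 for Csf3r, 0.08 for Il34 and -0.02 for Csf1r. Without the disputed libraries they were 0.51, 0.61, 0.39, 0.27 and 0.03 in the same order. For Csf3 the value was 1.34 without cold-ischemia replicate 1, the highest Csf3 library of its group.

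**Figure D4:**
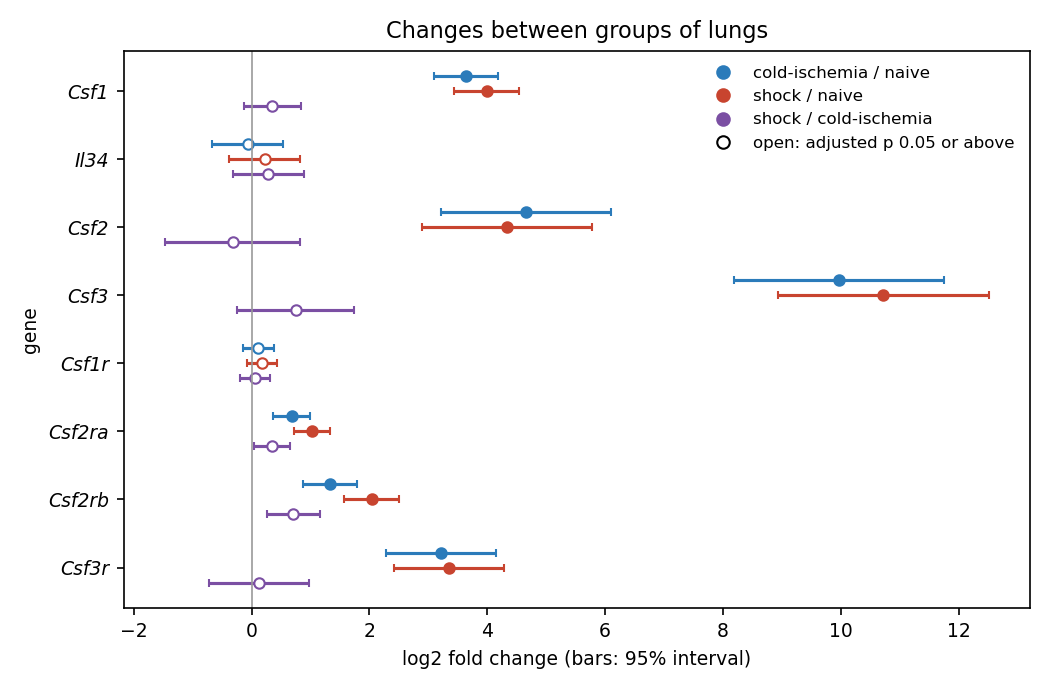
Log2 fold change of the 8 genes with 95% intervals from the edgeR fit, for cold-ischemia grafts over naive lungs, shock grafts over naive lungs, and shock over cold-ischemia grafts. Filled points have an adjusted p under 0.05: Csf1, Csf2, Csf3, Csf2ra, Csf2rb and Csf3r against naive lungs, and none between the graft groups.

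Genes that carry the signal of these receptors rose in part. Of 20 signalling genes, 13 were higher and 3 lower in all grafts, with a median log2 fold change of 0.79. Over all genes tested, 22.1% were called higher and 19.7% lower there. The counts were 11 and 2 in cold-ischemia grafts, beside 17.5% and 13.1% of all genes. In shock grafts they were 14 and 2, beside 22% and 17.9%. Higher were Syk, a kinase of myeloid receptor pathways (1.80 ± 0.15, adjusted p = 9.23e-06), Stat3, the main transcription factor of the G-CSF receptor (1.63 ± 0.18), and the kinases Jak2 (1.57 ± 0.18) and Jak1 (1.11 ± 0.13). The paired genes of STAT5, the factor used by GM-CSF, went in opposite directions: Stat5a rose by 1.38 ± 0.24 (adjusted p = 0.00108) and Stat5b fell by 0.55 ± 0.10 (adjusted p = 0.00174, edgeR). The other 2 lower genes were Tyk2, a JAK kinase (-0.50 ± 0.14), and Pik3r1, a regulatory subunit of PI3 kinase (-0.40 ± 0.12). These 4 genes, and Ccr2, Elane and Mpo above, were singled out after their values were seen.

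Among the genes of negative feedback, 3 had larger fold changes than any of the 20 signalling genes. Of 10, 5 were higher and 0 lower in all grafts, with a median log2 fold change of 0.72, beside 22.1% and 19.7% of all genes tested. The counts were 5 and 0 in cold-ischemia grafts, beside 17.5% and 13.1%, and 6 and 0 in shock grafts, beside 22% and 17.9%. Socs3, an inhibitor of STAT3 signalling that is induced by G-CSF, had 28.8 to 36.7 CPM in naive lungs and 936.3 to 2133 CPM in grafts (log2 5.52 ± 0.27, adjusted p = 4.38e-07). Cish, a target of STAT5, had 12.8 to 18.3 CPM in naive lungs and 64.6 to 100.3 CPM in grafts (log2 2.44 ± 0.19, adjusted p = 6.21e-06, edgeR). Socs1, an inhibitor of JAK kinases, rose by 3.42 ± 0.37, and Spred1, an inhibitor of the Ras pathway, by 1.21 ± 0.15. Many cytokines induce these genes, so their levels are not specific to colony-stimulating factors.

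**Figure D5:**
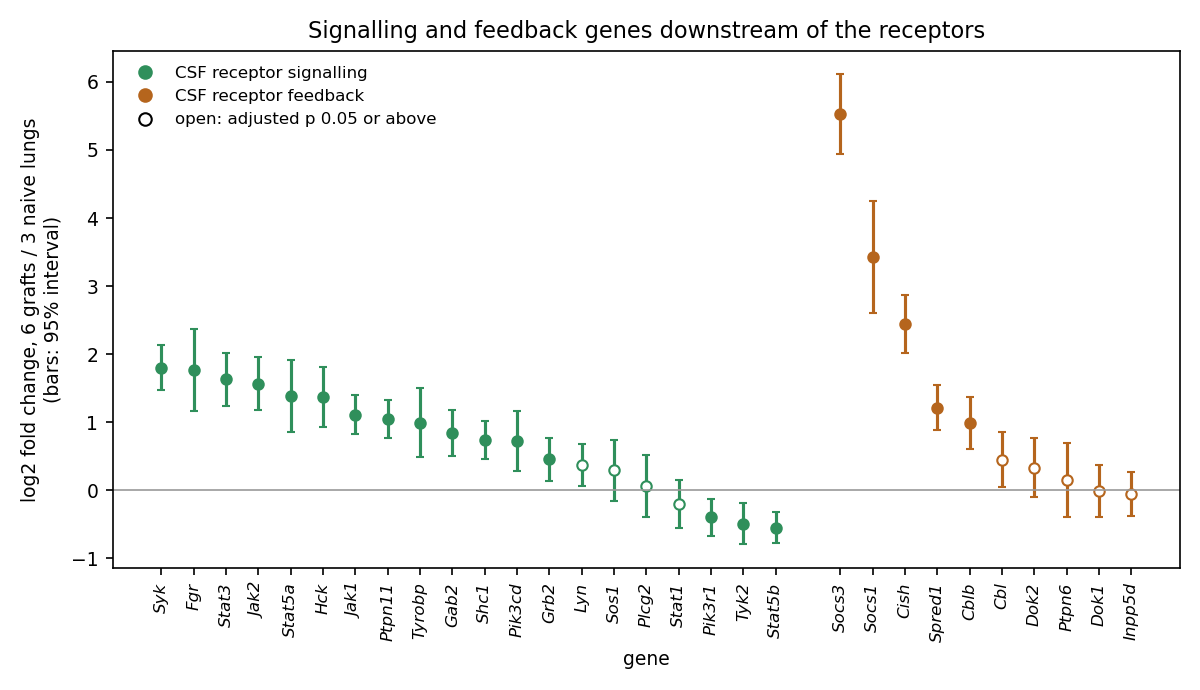
Log2 fold change of 6 grafts over 3 naive lungs, with 95% intervals from the edgeR fit, for 20 signalling genes (green) and 10 feedback genes (brown), each ordered by size; open points have an adjusted p of 0.05 or above. Socs3, Socs1 and Cish stand above all 20 signalling genes, and Stat5b, Tyk2 and Pik3r1 are the filled points below 0.

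Most of the listed cytokines known to induce Csf2 and Csf3 were higher in the same grafts. Of 6 tested inducer genes, 5 were higher and 0 lower in all grafts, beside 22.1% and 19.7% of all genes tested. Their median log2 fold change was 6.07. A further one, Il17f, did not pass the filter on low counts. Il1a had 2.04 to 2.63 CPM in naive lungs and 74.7 to 149.5 in grafts. Il1b had 2.62 to 7.50 CPM in naive lungs and 295.3 to 590.1 in grafts, and Tnf 0.498 to 0.601 and 43.6 to 118.5. These 3 early cytokines of inflammation had adjusted p-values of 4.38e-07, 2.4e-06 and 9.06e-07 (edgeR). Il17a, a cytokine of T cells and innate lymphocytes, had no read in 2 naive libraries and 0.399 to 3.34 CPM in grafts. Il33, named after its values were seen, had 83.35 to 94.18 CPM in naive lungs and 70.5 to 147.3 in grafts, so the groups overlapped.

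For genes that macrophages express under GM-CSF or M-CSF, the counts are read against the 22.1% of all genes called higher and 19.7% called lower in the same comparison. Of 12 genes of the GM-CSF-dependent alveolar macrophage, 2 were higher and 1 lower in all grafts, with a median log2 fold change of -0.12, beside -0.05 over all genes. With the tables' grouping 3 were higher and 4 lower, and without the disputed libraries 3 and 3. The 2 higher were the scavenger receptors Olr1 (2.23 ± 0.33, adjusted p = 0.000397) and Marco (1.44 ± 0.44, adjusted p = 0.0217), and Car4, a carbonic anhydrase, was lower (-0.52 ± 0.14, adjusted p = 0.0123, edgeR). Pparg, the factor that GM-CSF induces in these cells, had a value of 0.42 ± 0.16 (adjusted p = 0.0583, edgeR). All these values are of whole lung, where the cells behind a transcript were not told apart. Of 9 endothelial markers, 1 was higher and 3 lower in all grafts. The part of other cells in Car4 and Cd36 was not tested. The summed CPM of the 12 ran from 2380 to 2677 in naive lungs and from 2061 to 3220 in grafts. Cd36 and Chil3, which also stands among the monocyte markers, made up 79.3% to 85.9% of the sum in grafts; without both, a sum added after seeing the data, the other 10 ran from 373.7 to 476.2 CPM in naive lungs and from 355.4 to 485.8 in grafts, so the groups overlapped in either sum. Of 13 genes of CSF1R-dependent macrophages, 4 were higher and 1 lower. Spi1, which encodes PU.1, was higher (1.24 ± 0.24, adjusted p = 0.00224), as was Irf8 (0.67 ± 0.21), both factors of the macrophage and monocyte lineage. Cx3cr1, a receptor of patrolling monocytes and resident macrophages, was lower (-2.03 ± 0.44, adjusted p = 0.00377, edgeR).

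For each of the 8 genes, the 3 genes with the most similar profile over the 9 libraries were sought among 12301 candidates, by the root mean square difference of centred log2 CPM. For Csf1 these were Pim1, Samsn1 and Tnip1, with a difference of 0.167 for Pim1, a kinase gene. For Csf3 they were the chemokine genes Cxcl10 (0.599), Ccl2 and Cxcl3, and for Csf2 Nr4a3 (0.638), Has1 and Sfn. The match was looser for Csf3 and Csf2 than for the other genes, whose nearest profile lay within 0.355. Csf3r was nearest to Mmp9 (0.355), a neutrophil granule protease, then Padi4 and Tlr13. Csf2rb was nearest to its copy Csf2rb2 (0.133), then Cybb, the catalytic chain of the phagocyte oxidase, and Cxcl16. Csf2ra was nearest to Zc3h10 (0.0939), Cpsf7 and Cwc25, Csf1r to Glud1 (0.0559), Gpx4 and Otud5, and Il34 to Nsfl1c (0.120) and Arhgap11a. For Csf1r and Il34, which did not pass the test, the measure mainly finds other genes with level profiles.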

How the data were processed

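The authors deposited 3 tables, 1 per pair of groups with 6 libraries each, joined here by gene identifier; the 9 repeated library columns held 0 differing counts. Read counts are whole numbers per gene, per the file headers. The deposited signal is the count over a size factor, and was not used. The deposited FPKM equals the count scaled to gene length and to the counted reads of the library, and gave the levels. The deposited log2 fold changes and p-values are quoted as such. The submitters' processing notes list mm10 and the tools STAR, STAR-Fusion, HTSeq, edgeR and DESeq2; versions, roles and the annotation are not given in the sources used here. Libraries were made from 1 µg of RNA and read as pairs of 150 bases, per the labels.

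Counts were tested in edgeR 4.0.16 under R 4.3.3 by its two-sided quasi-likelihood test (TMM scaling, filterByExpr, all 9 libraries in 1 fit with a mean per group, Benjamini-Hochberg over all genes tested, threshold 0.05). CPM uses TMM-scaled totals, and log2 CPM a prior count of 2. SE is the log2 fold change over the root of F. DESeq2 1.42.0 and limma 3.58.1 were also loaded, the former as an alternative test. The code was tested on simulated counts. Exact permutation tests used scipy 1.17.1. ATTTA was counted in GENCODE M21.

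All 8 genes were named in every comparison. From each list up to 4 genes with the smallest adjusted p over all grafts were named, and 3 like genes per member, leaving out genes whose mean was under 2 CPM and predicted genes, clones and pseudogenes. Some genes that this rule names are not reported here. The members and lists were chosen with earlier results of these data known. Alternatives were other scalings, no filter, DESeq2, only the compared libraries, a replicate block, the tables' grouping, and leaving out libraries.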

Additional observations from a re-analysis of the deposited data

How the results depend on the processing

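The 6 genes called against naive lungs were called in each of 17 alternatives per comparison, with the same direction; the highest adjusted p was 0.0297, for Csf2ra in cold-ischemia grafts. Genes called between shock and cold-ischemia grafts numbered 0 in the main edgeR test, 8 with DESeq2, 124 with the tables' grouping and 39 without the disputed libraries, and 0 members were called in any of these. Leaving out 1 library gave 3371 to 5662 called genes for cold-ischemia grafts, 4613 to 6635 for shock grafts, 4803 to 7114 for all grafts and 0 between the graft groups. With upper-quartile scaling the median of all genes shifted to -0.22, -0.28 and -0.25 (log2) for cold-ischemia, shock and all grafts against naive lungs. The share of called genes that were higher was then 39.3%, 36.5% and 34.8%, against 57.1%, 55.1% and 52.8%, and 3371, 4661 and 5029 genes were called lower, against 2078, 2836 and 3123.

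Signs turned only for values that were never called. With upper-quartile scaling Csf1r was -0.0675, -0.0442 and -0.0558 (log2) in cold-ischemia, shock and all grafts, and Il34 -0.1217 in all grafts. With the tables' grouping Il34 was 0.0452 in cold-ischemia grafts, and between the graft groups Csf2 was 0.1098 and Csf1r -0.0222. Leaving out 1 library, Csf3r between the graft groups ran from -0.2893 without shock replicate 1 to 0.5053 without cold-ischemia replicate 3, and was -0.1595 without cold-ischemia replicate 1. Il34 ran from -0.1677 to 0.0015 in cold-ischemia grafts, turning without naive replicate 2, and from -0.1434 to 0.4879 in shock grafts, turning without shock replicate 2. In all grafts it ran from -0.1019 without shock replicate 2 to 0.2139 and was -0.0296 without naive replicate 1, and between the graft groups it ran from -0.083 without shock replicate 2 to 0.5478. The cause of these turns was not tested.

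Replicate numbers did not pair the samples: over 9 same-numbered pairs the correlation of deviations ran from -0.50 to 0.13. With the replicate block, 4296, 5801 and 6111 genes were called for cold-ischemia, shock and all grafts against naive lungs, and 0 between the graft groups; all 6 member calls against naive lungs stood. The order of the 8 genes by level did not change with reads per length from TMM-scaled CPM. Depth limits Csf2 and Csf3 in naive lungs, where 34 and 5 reads were counted. The labels do not name animals, the strand setting is not stated, and 3 libraries per group bound what the comparison of graft groups can detect.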
